A study of Mus musculus with 23 samples.

Results

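The 9 genes described here are Lpl, Angptl4, Cd36, Mfsd2a, Plin2, Cpt1a, Pdk4, Acaa1b and Acoxl. Acoxl resembles peroxisomal oxidases in sequence, and the others act in the uptake, storage or oxidation of lipids or in its control. Most of the 9 are known targets of the PPAR nuclear receptors. They are 9 of the 41388 genes in the count table and were picked by symbol from a list that was drawn up with earlier results of these libraries known. Differences between groups were therefore among the values that chose them, and for these genes they are given as a description with no test. All 9 were among the 17148 genes that passed the filter on low counts.

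RNA-seq libraries came from lungs of male Balb/c mice in 5 groups, whose ages the labels do not give. In LPS+nAAT, LPS+oxAAT and LPS+recAAT (5 libraries each), mice inhaled an aerosol of 0.21 mg/ml lipopolysaccharide (LPS), a bacterial cell wall component that inflames the lung, in 3 daily sessions of 10 min. At 1 h after every session they were injected i.p. with 4 mg/kg of alpha1-antitrypsin (AAT), a plasma inhibitor of neutrophil elastase, in its native, oxidized or recombinant form. The LPS group (5 libraries) had the same exposures followed by saline, and the air group (3 libraries) breathed clean air, with the experiment ended 6 h past the final dose and mice given an AAT peptide not analysed here.

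PPARs are nuclear receptors for fatty acids. Each pairs with a retinoid X receptor (RXR) on DNA, typically at repeats of a short half-site, and raises transcription of genes for lipid uptake, storage and oxidation. In the lung, PPAR gamma is known for its part in the maturation of alveolar macrophages, which clear surfactant lipid. Lipoprotein lipase and its inhibitor Angptl4 set how much fatty acid is freed from circulating triglyceride. Cd36 and Mfsd2a carry lipid into cells, Plin2 coats stored droplets, and Cpt1a, Pdk4 and Acaa1b act in mitochondria or peroxisomes.

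Each library held between 14.8 M and 47.9 M counts in genes. Levels are given in CPM, counts relative to the library's total after TMM scaling, and libraries are named by the number in their label. The lung markers Sftpc, of alveolar type 2 cells, and Ager, of type 1 cells, were at 11562 and 1809.6 CPM or more in every library. The libraries formed 2 sets that no label names: in 15 libraries the mt-Nd6 count was 0.34% to 1.14% of the mt-Nd5 count, and in the other 8 it was 3.39% to 4.5%. The second set held all 5 LPS+recAAT libraries and LPS+oxAAT 5103, 5104 and 5105, so LPS+recAAT and the second set can be told apart only through the LPS+oxAAT libraries.

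Per kilobase of exon, Cd36 was the most abundant of the 9 genes in every group, at 280 ± 52.6 CPM per kb in LPS and 380 ± 22.8 in air (SD, n = 5 and n = 3). Plin2 came next, at 60.4 ± 10.51 in LPS and 54.5 ± 5.76 in air. In LPS lungs Lpl (28.6 ± 5.13) and Cpt1a (24.04 ± 5.24) followed and did not differ beyond their spread, and likewise Acoxl (12.2 ± 2.32) and Angptl4 (10.2 ± 2.92). Acaa1b, Pdk4 and Mfsd2a were the lowest, at 6.45 ± 1.67, 3.92 ± 1.31 and 1.63 ± 0.76 CPM per kb in LPS. In air, Acoxl (17.4 ± 5.15) and Lpl (16.97 ± 2.03) did not differ beyond their spread, nor did Acaa1b (12.7 ± 2.99) and Angptl4 (11.5 ± 0.54) or Pdk4 (3.93 ± 1.495) and Mfsd2a (3.53 ± 0.43). Mfsd2a rested on 25 to 279 counts per library, Cd36 on 14193 to 58708. The lengths were those of all annotated exons of a gene merged, 10.478 kb for Lpl, 7.642 kb for Cpt1a and 3.512 kb for Plin2. Which transcripts were present was not examined, so the order given here depends on these lengths. In plain CPM Lpl was at 300 ± 53.7 and Plin2 at 212 ± 36.9 in LPS, and at 178 ± 21.3 and 191 ± 20.2 in air.

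Set against air, LPS lungs held more Lpl and less Acaa1b, Mfsd2a and Cd36, and these 4 genes were the ones whose groups did not overlap, as in 11.3% of all tested genes. Of the 9 genes, 2 met the call threshold (an adjusted p under 0.05 over all tested genes, edgeR), Lpl and Acaa1b, while 4.39% of all 17148 genes did; since this contrast was among the values that chose the genes, nothing is read from that count. The median log2 fold change of the 9 was -0.17, against -0.01 over all genes. Relative to LPS, the fitted value was above 0 for Lpl and Cd36 and below 0 for Mfsd2a with each of the 3 AAT preparations. These 3 comparisons share the LPS libraries. For LPS+nAAT 0 of the 9 were called, against 0.595% of all genes; for LPS+oxAAT it was 1, Mfsd2a, against 4.71%; for LPS+recAAT it was 2, Mfsd2a and Acoxl, against 8.49%. Nothing is read from these counts either.

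**Figure D1:**
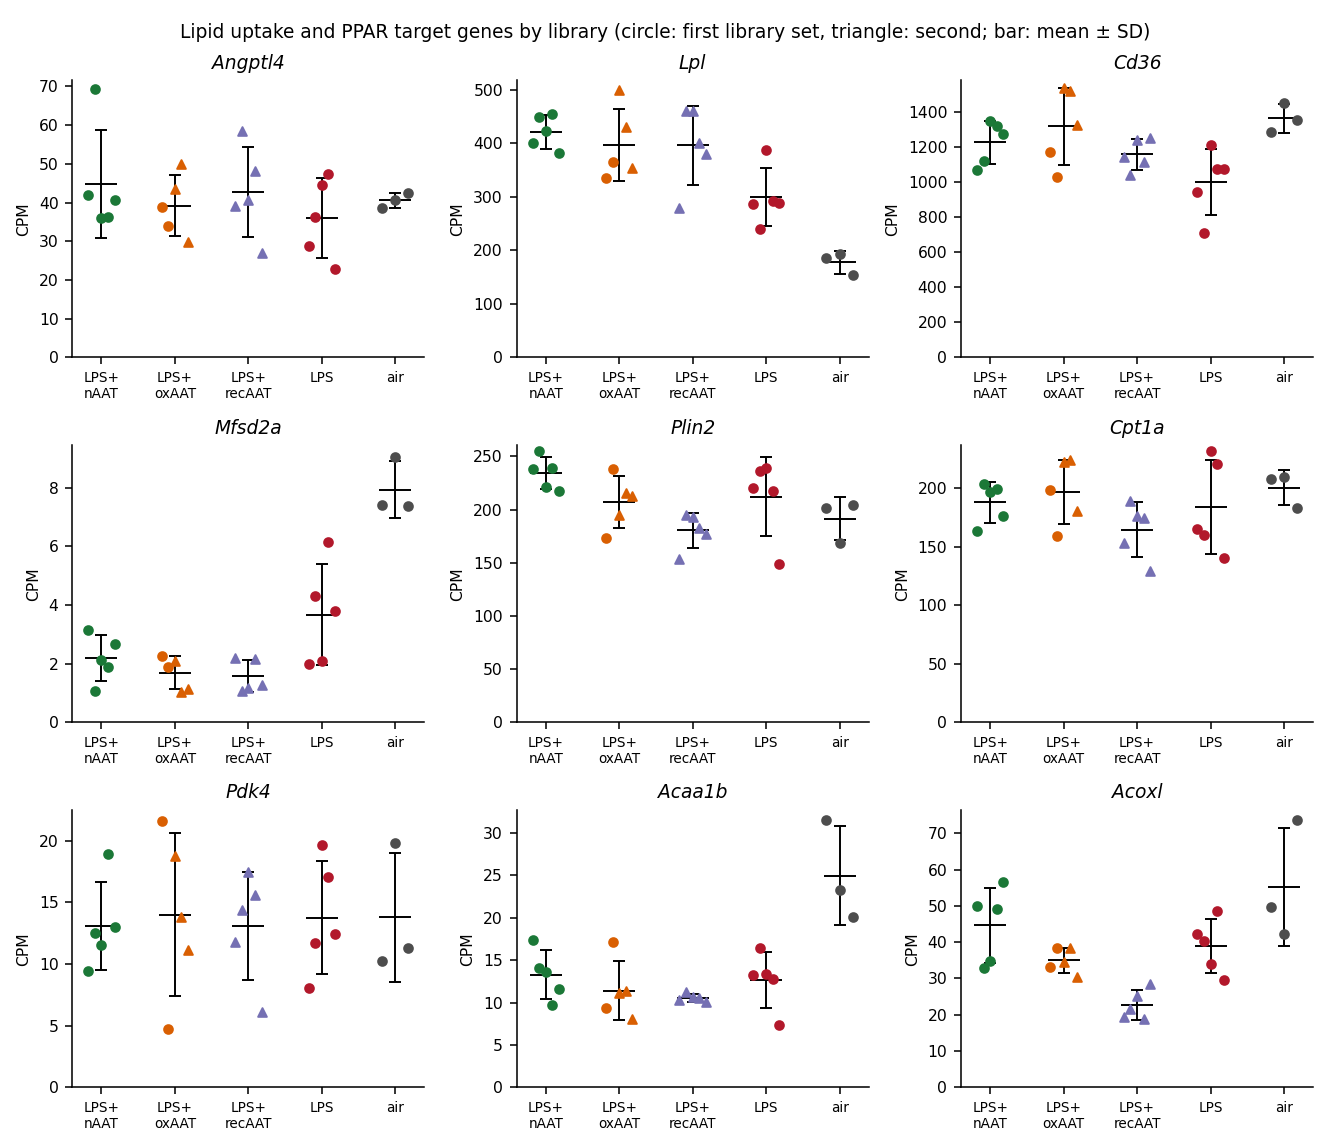
Level of each of the 9 genes in CPM (vertical axes, from 0) in each library of the 5 groups, with circles for the first library set, triangles for the second, and bars for mean ± SD. Lpl is lowest in the 3 air libraries, Mfsd2a and Acaa1b are highest there, and Acoxl is lowest in the 5 LPS+recAAT libraries.

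Lpl encodes the lipase that hydrolyses lipoprotein triglyceride on the capillary wall. It was at 400, 450, 424, 456 and 382 CPM in LPS+nAAT, at 336, 365, 501, 431 and 355 in LPS+oxAAT, and at 280, 461, 462, 400.2 and 380 in LPS+recAAT. LPS lungs had 287, 241, 388, 293 and 289 CPM, and air lungs 187, 193 and 154. Every LPS library lay above every air library, and LPS 1103, at 388 CPM, was the one LPS library that reached into the range of LPS+nAAT.

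The log2 fold change of Lpl was 0.75 ± 0.16 (SE) for LPS over air, and relative to LPS it was 0.49 ± 0.13 for LPS+nAAT, 0.41 ± 0.13 for LPS+oxAAT and 0.40 ± 0.13 for LPS+recAAT. The mean was 2.38 times that of air in LPS+nAAT, 2.24 times in LPS+oxAAT and 2.23 times in LPS+recAAT. The call against air was lost without air 2105, where the log2 fold change was 0.66. In the 3 comparisons with LPS it was not called, but over the same libraries it was called in all 3 by DESeq2 (0.49, 0.41 and 0.41) and with a replicate block by the mouse number's final digit, a pairing no label states (0.51, 0.40 and 0.40), and by edgeR without LPS 1103 (0.61, 0.52 and 0.51). It was also called for LPS+oxAAT without LPS+oxAAT 5102 (0.45) and for LPS+recAAT without LPS+recAAT 6101 (0.50). Under the other alternatives it was not called. Calls came under 3 of 16 alternatives for LPS+nAAT, 4 of 16 for LPS+oxAAT and 4 of 15 for LPS+recAAT. Over all alternatives the value ran from 0.43 to 0.61 in LPS+nAAT, 0.22 to 0.52 in LPS+oxAAT and 0.11 to 0.51 in LPS+recAAT. In these bulk samples, fewer cells of a type and less RNA per cell cannot be told apart.

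Summed markers of alveolar macrophages, a list of 10 genes all detected, ran from 872 to 1178 CPM in LPS+nAAT, 624 to 853 in LPS+oxAAT, 460 to 875 in LPS+recAAT, 658 to 849 in LPS and 533 to 603 in air. The 3 air libraries had 3 of the 4 lowest sums, and LPS+recAAT 6101, lowest in Lpl among the AAT libraries, had the lowest sum of all, 460. LPS 1102, lowest in Lpl outside air at 241 CPM, had the second highest sum of its group, 761. LPS+oxAAT 5101, with the lowest sum of its group, 624, had more Lpl (336 CPM) than 4 of the 5 LPS libraries. Between LPS and air 3 of the 10 markers were called, 2 higher and 1 lower, and between LPS+nAAT and LPS 0 were. The 10 did not move as 1, and abundant genes weigh most in the sum. Chil3, the most abundant, ran from 251 to 317 CPM in LPS and 176 to 203 in air. Itgax ran from 134 to 157 in LPS and 61.3 to 82.3 in air. Ear2 went the other way, with 40.8 to 71.9 CPM in LPS and 79.9 to 95.1 in air. So did Fabp1, with 5.87 to 8.16 in LPS and 8.89 to 13.5 in air. Markers of monocytes and recruited macrophages also moved, from a separate list of 8: 5 were called higher in LPS, with sums of 345 to 403 CPM in LPS and 165 to 224 in air. White adipocyte markers summed to 7.22 to 105 CPM in LPS and 27.3 to 102 in air, and 0 of 7 were called. The part of these cells in the Lpl values was not tested.

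Angptl4 encodes a secreted inhibitor of lipoprotein lipase and is a well known PPAR target. Its levels were 42.0, 69.2, 36.1, 36.2 and 40.5 CPM in LPS+nAAT, 39.0, 33.9, 43.6, 49.9 and 29.8 in LPS+oxAAT, and 39.2, 58.4, 40.5, 48.2 and 26.9 in LPS+recAAT. LPS lungs had 28.7, 36.2, 44.6, 47.3 and 22.9 CPM and air lungs 38.7, 40.5 and 42.5. All 5 groups overlapped, the 3 air libraries spanned the narrowest range, and LPS+nAAT 4102 stood above the rest of its group. The log2 fold change was -0.17 ± 0.24 for LPS over air, and relative to LPS it was 0.32 ± 0.21 for LPS+nAAT, 0.12 ± 0.21 for LPS+oxAAT and 0.24 ± 0.21 for LPS+recAAT (SE). None of the 4 was called under any alternative run.

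Cd36, a fatty acid translocase of capillary endothelium and macrophages, was at 1073, 1123, 1350.1, 1321 and 1276 CPM in LPS+nAAT and at 1175, 1030.1, 1541, 1521 and 1329 in LPS+oxAAT. It was at 1142, 1042, 1241, 1117 and 1253 CPM in LPS+recAAT. LPS lungs had 946, 710.4, 1212, 1073 and 1077 CPM, against 1289.8, 1452 and 1355 in air lungs. All LPS libraries lay below all air libraries, LPS 1102 furthest, and the AAT groups overlapped LPS.

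Between LPS and air the log2 fold change of Cd36 was -0.44 ± 0.14 and was not called. It was called there with the library set as a term (-0.44), with DESeq2 (-0.44), with the replicate block (-0.57) and without LPS 1103 (-0.52). Relative to LPS, Cd36 differed by 0.29 ± 0.12 in LPS+nAAT, 0.39 ± 0.12 in LPS+oxAAT and 0.21 ± 0.12 in LPS+recAAT. With the library set as a term the LPS+recAAT value was -0.20, so its direction was not kept. In LPS+oxAAT the call was gained with DESeq2 (0.40), with the replicate block (0.40) and without LPS 1103 (0.47), LPS 1105 (0.43), LPS+oxAAT 5101 (0.43) or LPS+oxAAT 5102 (0.48). These were 6 of 16 alternatives, over which the value ran from 0.13 to 0.48. LPS+oxAAT 5101 and 5102, of the first library set, were at 1175 and 1030.1 CPM. The second-set libraries 5103, 5104 and 5105 were all higher, at 1541, 1521 and 1329 CPM. Summed capillary endothelium markers, a list of 10, were 4404 to 5753 CPM in LPS+oxAAT, 3940 to 5125 in LPS and 4440 to 4888 in air. The LPS+oxAAT sums were 4507 and 4404 CPM in first-set libraries 5101 and 5102. In second-set libraries 5103, 5104 and 5105 they were 5519, 5753 and 5386. Between LPS+oxAAT and LPS 1 of the 10 was called, Calcrl, a receptor for calcitonin-family peptides. It ran from 560 to 1599 CPM in LPS+oxAAT (median 1372), 293 to 775 in LPS (median 639) and 1175 to 1331 in LPS+recAAT. The median log2 fold change of the 10 for LPS+oxAAT was -0.02. The part of these cells in the Cd36 values was not tested.

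Mfsd2a encodes a transporter of lysophosphatidylcholine, best known as the carrier of docosahexaenoic acid across the blood-brain barrier. Its levels were 3.15, 1.08, 2.14, 1.90 and 2.69 CPM in LPS+nAAT, 2.28, 1.89, 2.11, 1.03 and 1.15 in LPS+oxAAT, and 2.21, 1.08, 1.17, 2.16 and 1.28 in LPS+recAAT. LPS lungs had 1.99, 4.30, 2.09, 6.14 and 3.80 CPM and air lungs 7.40, 9.05 and 7.37. Air was highest with no overlap with any other group, LPS was the most spread, and LPS 1101 and 1103 lay within the ranges of the AAT groups. How many of all genes had air set apart in this way was not counted.

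The log2 fold change of Mfsd2a was -1.12 ± 0.33 for LPS over air, which was not called. It was called there with the library set as a term (-1.12), with DESeq2 (-1.11) and without LPS 1104 (-1.40). Relative to LPS it was -0.74 ± 0.31 in LPS+nAAT, -1.10 ± 0.31 in LPS+oxAAT and -1.22 ± 0.32 in LPS+recAAT, the last 2 called. Both calls were lost with the library set as a term (-0.81 in LPS+oxAAT and -0.68 in LPS+recAAT) and without LPS 1104 (-0.83 and -0.95). That of LPS+oxAAT was also lost with the replicate block (-1.07), within the first library set (-0.82) and without LPS 1102 (-1.04) or LPS+oxAAT 5103 (-1.19), 5104 (-0.97) or 5105 (-0.99). With the library set as a term, nearly all calls over all genes were lost for LPS+oxAAT and LPS+recAAT, so that loss is not particular to Mfsd2a. As a ratio of means to air, Mfsd2a stood at 0.28 in LPS+nAAT, 0.21 in LPS+oxAAT and 0.20 in LPS+recAAT.

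**Figure D2:**
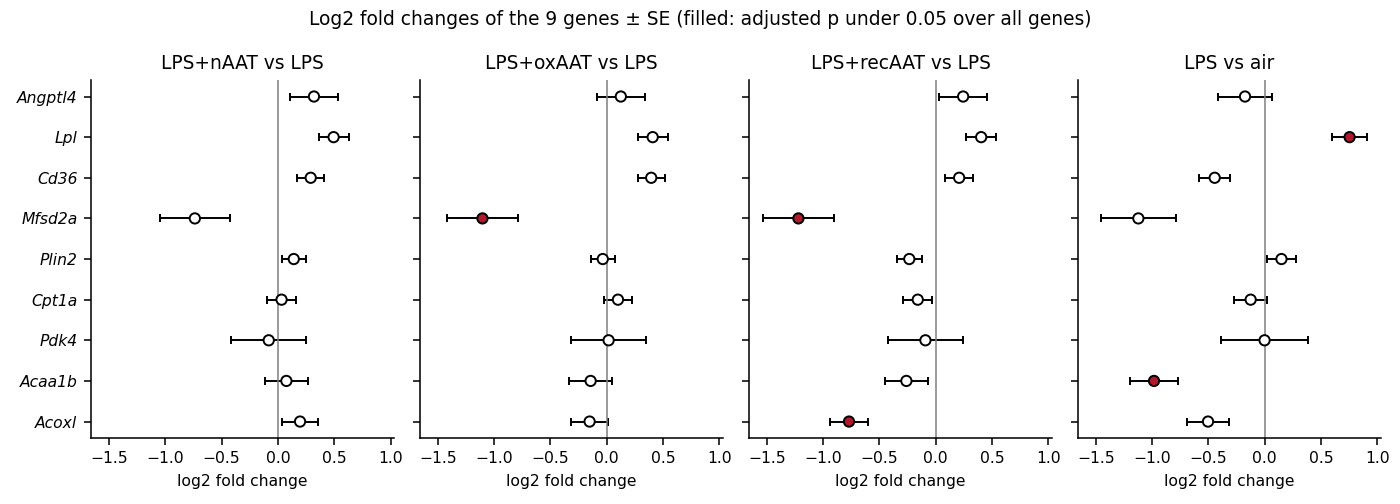
Log2 fold change (horizontal axes) of each gene in the 4 comparisons, with bars for the SE and filled points where the adjusted p over all genes was under 0.05. Lpl and Cd36 lie right of 0 and Mfsd2a left of 0 in all 3 comparisons of an AAT group with LPS, while Lpl is the 1 gene well to the right in LPS against air.

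Plin2 coats lipid droplets and protects them from lipolysis. It was at 238, 255, 221, 239 and 218 CPM in LPS+nAAT, 173, 238, 195, 216 and 213 in LPS+oxAAT, and 153, 195, 193, 183 and 177 in LPS+recAAT. LPS lungs had 220, 236, 239, 217 and 149 CPM, against 201, 168 and 205 in air lungs. Plin2 varied least within groups of all 9 genes (SD 0.18 on the log2 scale), LPS 1105 stood below the rest of LPS, and all groups overlapped LPS. Relative to LPS it differed by 0.14 ± 0.11 in LPS+nAAT, -0.04 ± 0.11 in LPS+oxAAT and -0.23 ± 0.11 in LPS+recAAT, and between LPS and air by 0.15 ± 0.13. Without LPS 1105 the value for LPS+recAAT was -0.35 and was called.

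Start-site regions from RefSeq (GRCm38.p6, 250 bases before to 50 after the start that RefSeq gives) were matched for 7 of the 9 genes, all but Angptl4 and Lpl. They are shown for 4 genes because their letters include the PPAR half-site AGGTCA, which reads as TGACCT where it lies on the other strand. The window is chr5:17835847-17836146 for Cd36, chr4:122961139-122961438 for Mfsd2a and chr4:86670010-86670309 for Plin2, all on the minus strand, and chr19:3323051-3323350 on the plus strand for Cpt1a. The RefSeq start lies 52905 bases inside the GENCODE gene that was counted for Cd36 and 967 bases inside it for Cpt1a, and at most 1 base inside for Mfsd2a and Plin2. Among the windows not shown, it lies 15752 bases inside for Acoxl, 31 for Pdk4 and 0 for Acaa1b. Each window is written along its gene, with capitals for the half-site and for the direct repeat AGGTCANAGGTCA, in which N is any base, with at most 2 mismatches on either strand.
Cd36: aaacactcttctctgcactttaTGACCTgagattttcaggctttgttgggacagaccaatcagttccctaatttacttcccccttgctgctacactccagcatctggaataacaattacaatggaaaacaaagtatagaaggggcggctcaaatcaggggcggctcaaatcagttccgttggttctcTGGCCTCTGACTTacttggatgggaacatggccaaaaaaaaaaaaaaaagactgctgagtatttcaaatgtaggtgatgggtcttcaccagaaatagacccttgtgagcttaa
Mfsd2a: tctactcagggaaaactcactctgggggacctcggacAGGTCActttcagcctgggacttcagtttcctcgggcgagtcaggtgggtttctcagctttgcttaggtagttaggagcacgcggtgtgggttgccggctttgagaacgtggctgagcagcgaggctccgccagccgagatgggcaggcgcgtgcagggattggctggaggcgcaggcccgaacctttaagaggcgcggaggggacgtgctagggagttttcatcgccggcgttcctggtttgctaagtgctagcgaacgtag
Plin2: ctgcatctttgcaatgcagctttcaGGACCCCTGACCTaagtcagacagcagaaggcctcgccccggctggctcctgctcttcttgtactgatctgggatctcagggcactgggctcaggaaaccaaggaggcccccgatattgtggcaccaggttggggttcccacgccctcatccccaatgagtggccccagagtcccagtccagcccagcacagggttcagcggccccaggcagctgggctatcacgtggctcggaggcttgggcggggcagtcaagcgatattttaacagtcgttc
Cpt1a: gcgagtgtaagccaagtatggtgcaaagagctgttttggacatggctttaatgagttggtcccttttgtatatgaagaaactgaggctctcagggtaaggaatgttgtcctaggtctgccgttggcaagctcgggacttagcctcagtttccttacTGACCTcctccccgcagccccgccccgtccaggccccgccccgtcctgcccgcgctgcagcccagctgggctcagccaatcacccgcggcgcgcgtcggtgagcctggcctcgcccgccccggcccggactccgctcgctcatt

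The half-site occurred in 4 of the 7 windows and in 16% of 27025 promoters in the same table (4335). The direct repeat, with up to 2 mismatches, occurred in 2 of the 7, Cd36 and Plin2, and in 3.81% of all promoters. In Plin2 the half-site is part of the direct repeat, whose first base lies at -225 from the RefSeq start; in Cd36 they are apart, at -228 and -63. The glucocorticoid receptor half-site TGTTCT and the TATA box TATAAA, read on both strands, were in none of the 7, against 19% and 14.2% of all promoters. Such matches describe letters in a window and do not show binding, and for Cd36 and Acoxl the window lies far inside the counted gene.

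Cpt1a, the enzyme that passes long-chain fatty acids to carnitine for entry into mitochondria, was at 164, 204, 197, 199 and 176 CPM in LPS+nAAT, 198, 159, 222, 224 and 181 in LPS+oxAAT, and 153, 189, 177, 175 and 129 in LPS+recAAT. LPS lungs had 165, 160.4, 232, 221 and 141 CPM and air lungs 208, 209.9 and 183. All groups overlapped. The log2 fold change was -0.12 ± 0.15 for LPS over air, and relative to LPS it was 0.03 ± 0.13 in LPS+nAAT, 0.10 ± 0.13 in LPS+oxAAT and -0.16 ± 0.13 in LPS+recAAT, with no call under any alternative run.

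Pdk4 phosphorylates and so inhibits pyruvate dehydrogenase, which spares glucose when fat is burnt. Its levels were 9.42, 12.6, 11.5, 18.9 and 13.02 CPM in LPS+nAAT, 21.6, 4.73, 18.7, 13.9 and 11.1 in LPS+oxAAT, and 11.8, 14.4, 17.4, 15.6 and 6.13 in LPS+recAAT. LPS lungs had 8.05, 11.7, 19.7, 17.02 and 12.4 CPM and air lungs 10.2, 19.8 and 11.3. The highest and the lowest library of the whole study, 21.6 and 4.73 CPM, were both LPS+oxAAT, and its SD within groups, 0.60 on the log2 scale, was the widest of the 9 genes. The log2 fold change was 0.00 ± 0.39 for LPS over air, and the 3 values relative to LPS lay between -0.09 and 0.02, each with an SE of 0.33 or 0.34.

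The libraries with the highest and the lowest Pdk4 also differed in heart muscle markers. LPS+oxAAT 5101, the highest in Pdk4, had the highest summed level of the 10 heart markers, 814 CPM, and LPS+oxAAT 5102, the lowest in Pdk4, had 53.1 CPM. LPS+recAAT 6105, next lowest in Pdk4, had 189 CPM. The lowest sum of all, 48.1 CPM, was in LPS+nAAT 4103, where Pdk4 was at 11.5 CPM. The ranges of that sum were 48.1 to 619 CPM in LPS+nAAT, 53.1 to 814 in LPS+oxAAT, 146 to 600.1 in LPS+recAAT, 141 to 562 in LPS and 124 to 545 in air, and 0 of the 9 heart markers tested were called in any comparison. The part of heart muscle RNA in the Pdk4 values was not tested.

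**Figure D3:**
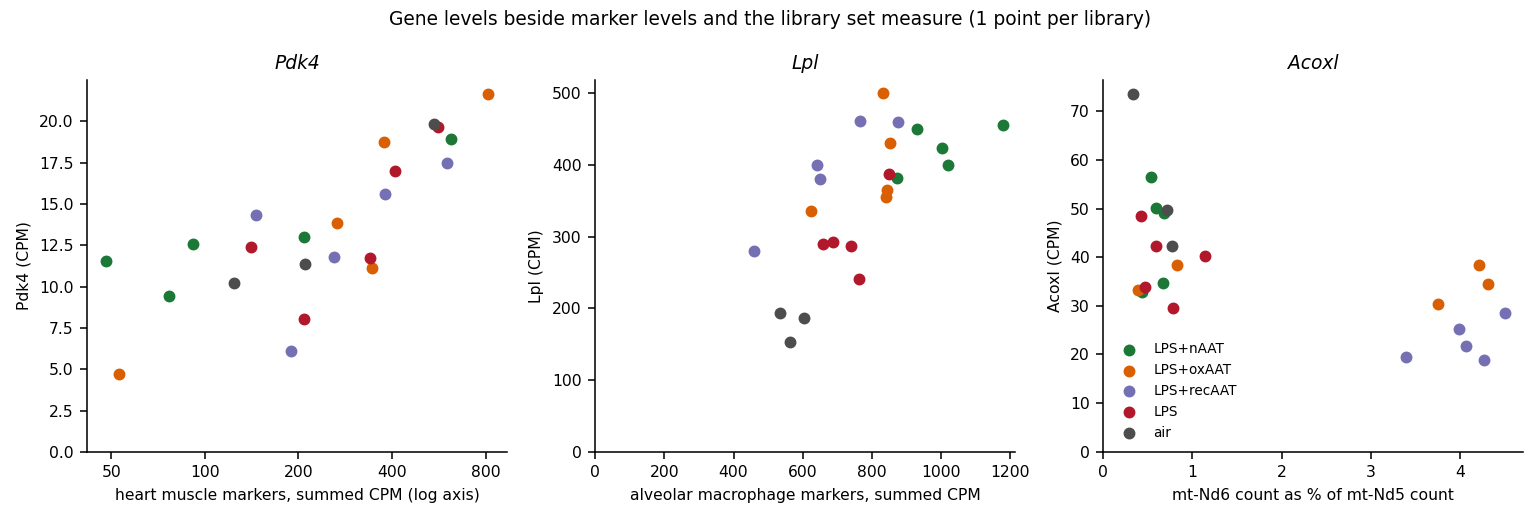
Level of Pdk4 against summed heart muscle markers (log axis), of Lpl against summed alveolar macrophage markers, and of Acoxl against the mt-Nd6 count as a percent of the mt-Nd5 count, 1 point per library and all levels in CPM. The lowest Pdk4 point, 4.73 CPM, is at a heart sum of 53.1 and the highest, 21.6 CPM, at 814. The lowest heart sum, 48.1, has a Pdk4 of 11.5 CPM. The Acoxl points of LPS+recAAT lie in the second library set, at 3.39% or more.

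Acaa1b encodes a peroxisomal thiolase, the last step of peroxisomal beta-oxidation. It was at 17.4, 14.1, 13.6, 9.69 and 11.6 CPM in LPS+nAAT, 9.32, 17.1, 11.1, 11.3 and 8.05 in LPS+oxAAT, and 10.3, 11.2, 10.7, 10.52 and 10.01 in LPS+recAAT. LPS lungs had 13.2, 16.5, 13.4, 12.8 and 7.39 CPM, against 31.5, 23.3 and 20.1 in air lungs. Every library exposed to LPS lay below every air library, and the AAT groups overlapped LPS. The share of all genes with air set apart from every other group was not counted.

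For Acaa1b the log2 fold change was -0.98 ± 0.22 for LPS over air, and relative to LPS it was 0.08 ± 0.19 in LPS+nAAT, -0.14 ± 0.19 in LPS+oxAAT and -0.26 ± 0.19 in LPS+recAAT. The call against air was lost without air 2101, the highest library, where the log2 fold change was -0.77. Acaa1b (chr9:119148023-119157093, minus strand, GRCm38) has a near-identical copy, Acaa1a (chr9:119339676-119350299, plus strand). Their coding sequences are the same at 1228 of 1272 bases (96.54%), and 39.6% of the 50-base stretches of Acaa1b transcripts also occur in transcripts of other genes, mostly Acaa1a. A further 224 exon bases of Acaa1b, 11.4% of its exon length, overlap exons of Dlec1 on the other strand, and the strand setting of the counting is not given. Acaa1b counts are therefore uncertain.

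Coding bases 460 to 549 are shown because this stretch tells the copies apart at 13 bases, in capitals.
Acaa1b: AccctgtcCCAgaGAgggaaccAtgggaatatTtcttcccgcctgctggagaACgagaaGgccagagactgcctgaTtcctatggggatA
Acaa1a: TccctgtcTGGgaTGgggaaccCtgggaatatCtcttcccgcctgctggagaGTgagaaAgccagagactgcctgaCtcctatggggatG
Acaa1a itself, named here as the copy and after its values were seen, differed by 0.35 ± 0.13 between LPS and air (log2, adjusted p = 0.138, edgeR), on the opposite side of 0 from Acaa1b.

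Acoxl is named acyl-CoA oxidase-like after the peroxisomal oxidases it resembles in sequence. It was at 50.01, 32.9, 34.7, 49.1 and 56.5 CPM in LPS+nAAT, 33.3, 38.4, 34.5, 38.4 and 30.5 in LPS+oxAAT, and 19.4, 21.7, 25.3, 18.9 and 28.6 in LPS+recAAT. LPS lungs had 42.3, 40.3, 33.9, 48.5 and 29.6 CPM and air lungs 49.7, 42.3 and 73.6. Every LPS+recAAT library lay below every library of the other 4 groups, and LPS overlapped both air and the other AAT groups. LPS+recAAT and LPS did not overlap in 7.46% of all tested genes. The share in which LPS+recAAT was set apart from all 4 other groups was not counted, so nothing is read from that separation.

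Relative to LPS, the log2 fold change of Acoxl was 0.20 ± 0.16 in LPS+nAAT, -0.15 ± 0.16 in LPS+oxAAT and -0.77 ± 0.17 in LPS+recAAT, the last called. LPS differed from air by -0.50 ± 0.19, which was not called. Acoxl was the 1 of 9 genes called in the comparison among the 3 AAT preparations, where 0.869% of all genes were. Such differences were among the values that chose the gene, so nothing is read from its calls. With the library set as a term the LPS+recAAT value was -0.71 and was not called, nor was the difference among preparations. Nearly all calls over all genes were lost there too. Within LPS+oxAAT, the 3 libraries of the second set were at 34.5, 38.4 and 30.5 CPM and the 2 of the first at 33.3 and 38.4. All 5 LPS+recAAT libraries are in the second set. With so few LPS+oxAAT libraries, the part of the library set in the low LPS+recAAT values cannot be told apart from that of the preparation. Summed alveolar type 2 markers were 26489 to 32625 CPM in LPS+recAAT and 27335 to 34355 in LPS, and 0 of 9 were called. The part of type 2 cells, or of any other cells, in the Acoxl values was not tested.

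Other genes of the same pathways were taken from 6 lists drawn up with earlier results known: nuclear receptors and co-regulators, lipid uptake, mitochondrial oxidation, peroxisomal oxidation, lipid droplets, and control of pyruvate dehydrogenase. Of 117 listed genes, 113 were tested. Between LPS and air 4 of these passed the edgeR test (3.54%, near the 4.39% of all genes). The median log2 fold change of the 113 was -0.08, against -0.01 over all genes. The nuclear receptor, mitochondrial and pyruvate dehydrogenase lists had 0 calls among 15, 29 and 9 genes, with 0, 3 and 0 genes at an unadjusted p under 0.05.

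Fabp5, a cytoplasmic fatty acid carrier, rose in LPS: it ran from 90.2 to 112 CPM in LPS and from 61.6 to 87.0 in air (log2 fold change 0.47 ± 0.12, adjusted p = 0.0194). Catalase, Cat, which breaks down peroxisomal hydrogen peroxide, fell to 326 to 398 CPM in LPS, against 502 to 586 in air (-0.52 ± 0.10, adjusted p = 0.0019, edgeR). Soat1, which esterifies cholesterol, was lower (-0.44 ± 0.10, adjusted p = 0.00934), and so was Dgat2, which completes triglyceride synthesis (-0.57 ± 0.16, adjusted p = 0.0362). For all 4 genes LPS and air did not overlap, as in 11.3% of all tested genes. The 4 were named because this contrast called them, so nothing further is read from that. For Dgat2 the highest LPS library was at 16.3 CPM and the lowest air library at 16.9. Cat kept its call under all 14 alternatives. Soat1 lost it without air 2101 (0.0753), and Fabp5 without LPS 1101 (0.0527), air 2101 (0.0619) or air 2102 (0.172). Dgat2 lost it without LPS 1101 (0.0833), 1102 (0.0737) or 1105 (0.0797) or air 2101 (0.0506), 2102 (0.0912) or 2105 (0.193), with no filter (0.0515) and in the first library set alone (0.0789).

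For LPS+nAAT against LPS, 0 of the 113 passed by edgeR, 19 had an unadjusted p under 0.05, and DESeq2 called 5. Pparg, which encodes PPAR gamma, was at 15.1 to 23.3 CPM in LPS+nAAT and 11.3 to 15.98 in LPS, a log2 fold change of 0.50 ± 0.13 that missed the threshold (adjusted p = 0.0585, edgeR). It was at 9.48 to 13.6 CPM in LPS+oxAAT and 9.65 to 13.7 in LPS+recAAT. Among the 3 preparations Pparg differed (adjusted p = 0.021, edgeR), as did Soat1 (adjusted p = 0.0403), which ran from 122 to 142 CPM in LPS+nAAT, 106 to 129 in LPS+oxAAT and 88.1 to 119 in LPS+recAAT. These 2 were 1.77% of the 113, against 0.869% of all genes. Pparg lost the call without LPS+nAAT 4101 (0.0517), 4102 (0.0502) or 4104 (0.086) and with the library set as a term (0.491), and Soat1 lost it under 13 of 20 alternatives. With the library set as a term, nearly all calls over all genes among the preparations were lost. The alveolar macrophage marker sums given above were also highest in LPS+nAAT, and their part in the Pparg values was not tested.

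For LPS+oxAAT against LPS, 5 of the 113 passed (4.42%, against 4.71% of all genes). Acsl4, which activates polyunsaturated fatty acids, rose to 149 to 309 CPM in LPS+oxAAT, against 109 to 187 in LPS (log2 fold change 0.62 ± 0.16, adjusted p = 0.0275, edgeR). Abcd2, a peroxisomal importer of acyl-CoA, was higher (0.49 ± 0.12, adjusted p = 0.0221), and so was Pdp1, a phosphatase that reverses the action of Pdk4 and its relatives (0.48 ± 0.12, adjusted p = 0.0204). Rxrb, a retinoid X receptor, was lower (-0.33 ± 0.09, adjusted p = 0.0312), as was Slc27a3 of the fatty acid transport family (-0.37 ± 0.09, adjusted p = 0.0186).

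In LPS+recAAT 4 of the 113 passed (3.54%, against 8.49% of all genes). Pdp1 rose to 28.7 to 34.7 CPM in LPS+recAAT, against 15.7 to 22.5 in LPS (log2 fold change 0.68 ± 0.12, adjusted p = 0.00106, edgeR). Acsl4 (0.57 ± 0.16, adjusted p = 0.0284) and Abcd2 (0.43 ± 0.12, adjusted p = 0.0321) were higher too. Acsl4, Abcd2 and Pdp1 were on the same side in LPS+oxAAT, a comparison with the same LPS libraries.

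With the library set as a term, none of the 8 calls named here for LPS+oxAAT and LPS+recAAT remained, with adjusted p of 0.696 to 0.993 for LPS+oxAAT and 0.694 to 0.898 for LPS+recAAT (edgeR). Nearly all calls over all genes were lost under that setting too, with counts given further below. The loss is therefore not particular to these genes. Acsl4 in LPS+recAAT then had a log2 fold change of -0.18, on the other side of 0, while the other 7 kept their direction. In LPS+oxAAT these were 0.38 for Abcd2, 0.30 for Pdp1, 0.13 for Acsl4, -0.28 for Slc27a3 and -0.25 for Rxrb, and in LPS+recAAT 0.39 for Pdp1 and 0.24 for Abcd2. In the first library set alone, where few calls over all genes remained for LPS+oxAAT, none of the 5 LPS+oxAAT calls was made (0.867 to 0.999). Rxrb lost its call with no filter (0.0547). All 5 LPS+oxAAT calls were lost without LPS+oxAAT 5103 (0.0749 to 0.131) or 5104 (0.0636 to 0.093), and some without 5105 (0.0529 and 0.0715) or LPS 1101 (0.0637 to 0.0868), 1102 (0.0777 to 0.105) or 1104 (0.0553 to 0.102). Of the LPS+recAAT calls, that of Pdp1 was kept without any single library. Those of Acsl4 and Abcd2 were both lost without LPS 1101 (0.0755 and 0.0817), 1102 (0.0913 and 0.104) or 1104 (0.0694 and 0.067) or LPS+recAAT 6102 (0.0684 and 0.0922) or 6103 (0.0637 and 0.0655).

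**Figure D4:**
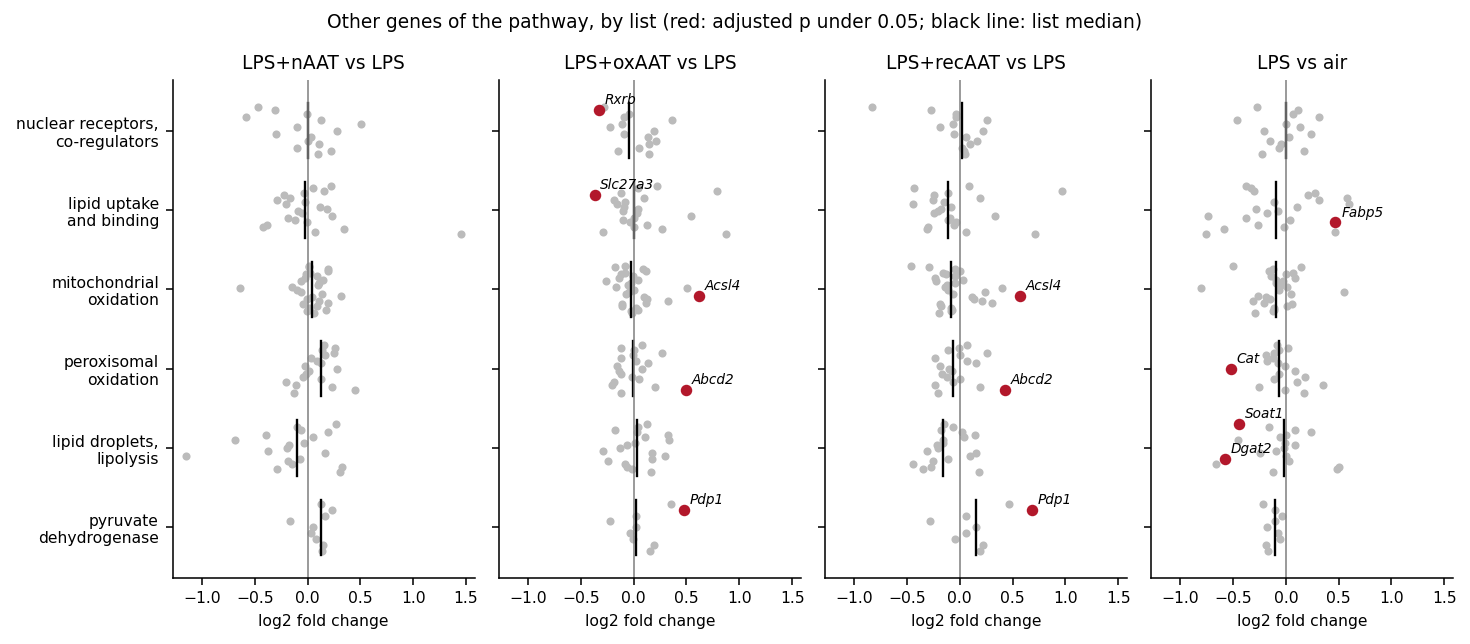
Log2 fold change (horizontal axes) of 112 of the 113 listed genes by list (rows) in the 4 comparisons, in red and named where the adjusted p was under 0.05, with a black line at the median over all tested genes of a list. Most points lie near 0, and the named ones are 5 in LPS+oxAAT, 3 in LPS+recAAT, 0 in LPS+nAAT and 4 in LPS against air.

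Within groups, some of the 9 genes varied together from library to library. Each of the 36 pairs was compared over the 23 libraries on log2 CPM after each group's mean was removed, which leaves out the differences between groups. The median Pearson r was 0.10, the range -0.51 to 0.76, and 21 pairs were above 0. After Benjamini-Hochberg adjustment over the 36 pairs, 2 passed 0.05 by Pearson's r and 4 by Spearman's rho.

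Angptl4 and Cpt1a had the highest r, 0.76 (permutation p = 0.00055, adjusted 0.0099), with a rho of 0.74 (permutation p = 0.00128, adjusted 0.0154). Cpt1a and Pdk4 had an r of 0.73 (permutation p = 0.00045, adjusted 0.0099) and a rho of 0.72 (permutation p = 0.00046, adjusted 0.00954). For Lpl and Cpt1a r was 0.64 (permutation p = 0.0061, adjusted 0.0732) and rho 0.72 (permutation p = 0.00053, adjusted 0.00954), so this pair passed by rank alone. So did Plin2 and Acaa1b, with an r of 0.63 (permutation p = 0.0147, adjusted 0.133) and a rho of 0.66 (permutation p = 0.00254, adjusted 0.0229), whose r was 0.40 without the 2 libraries farthest from the median of Plin2. Without the 2 libraries farthest from the median of the first gene, r was 0.75, 0.73 and 0.62 for the 3 pairs with Cpt1a. With the library set also removed it was 0.76, 0.71 and 0.60. Cd36 and Acaa1b had the lowest r, -0.51 (permutation p = 0.0648, adjusted 0.261), with a rho of -0.38 (permutation p = 0.115, adjusted 0.297). Without its 2 farthest libraries r was -0.23, so that relation rested on them. The heart marker sums given beside Pdk4 also varied from library to library, and their part in the pairs with Pdk4 was not tested.

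**Figure D5:**
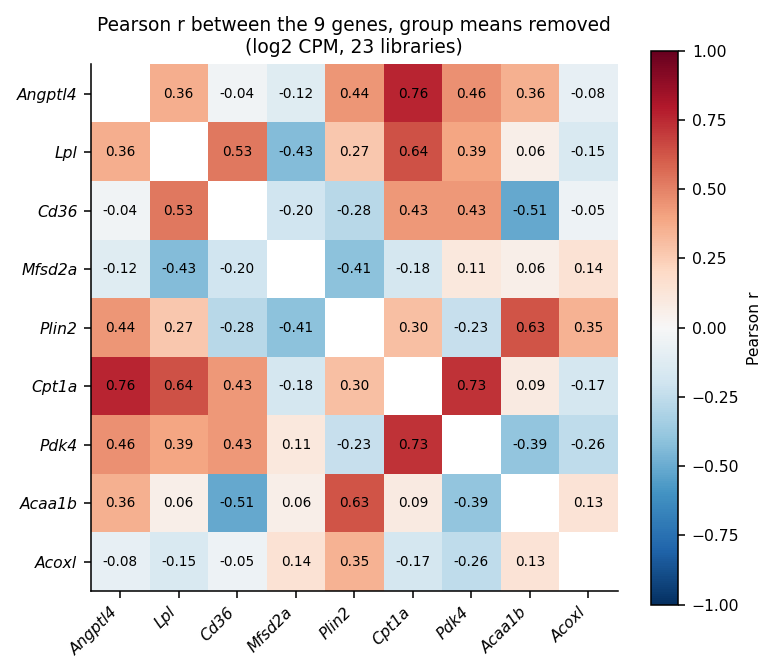
Pearson r (colour and number) between each pair of the 9 genes over 23 libraries, on log2 CPM with group means removed. Cpt1a has the 3 highest values, 0.76 with Angptl4, 0.73 with Pdk4 and 0.64 with Lpl.

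The genes most like each of the 9, by the same r among 13010 tested genes, are given as a description. Angptl4 was closest to Acot2 (0.81), a mitochondrial acyl-CoA thioesterase on the oxidation list, then Slc16a9 (0.78) and Cpt1a (0.76). Cpt1a was closest to Stim1 (0.84), Hlcs (0.83) and Kremen1 (0.83). For Pdk4 the closest were Ryr2 (0.92), Iqgap2 (0.92) and Txlnb (0.89), and Ryr2, the calcium release channel of heart muscle, is on the heart marker list. Lpl was closest to Ly75 (0.92), Mrc1 (0.88) and Chd4 (0.87), and Mrc1, the mannose receptor, is on the alveolar macrophage marker list.

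Cd36 was closest to Pdgfd (0.93), Tfpi (0.92) and Antxr2 (0.92), and Plin2 to Lgmn (0.87), Hexa (0.85) and Ssrp1 (0.85). Lgmn and Hexa encode lysosomal enzymes. Acaa1b was closest to Ahnak2 (0.88), Inpp5k (0.85) and Rims3 (0.83), and Acoxl to Psmc1 (0.89), Asna1 (0.88) and Pes1 (0.85). Mfsd2a had the weakest likeness, at 0.73 for Klk14, 0.71 for Med18 and 0.70 for Sidt1. These values were picked as the highest of 13010, and no test was made of them.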

How the data were processed

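Lung RNA of 23 libraries was sequenced after poly(A) selection with a stranded kit, per the labels' protocols. The authors deposited 1 table of raw counts by Ensembl gene, which they had not normalized. The submitters' processing notes name STAR 2.4.0.1, HTSeq 0.11.1, Trimmomatic (0.36 and 0.38), FastQC 0.11.8 and build GRCm38 without saying their roles; the sources used here do not give the strand setting or the annotation release. The 5 summary lines stayed out of library sizes and tests; reads on no feature were 6.79% to 13.1% and ambiguous reads 1.12% to 1.39% of the reads tallied. Symbols came from GENCODE mouse M21, which named 40254 of 41388 IDs.

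Groups were taken from the sample titles. Counts were tested with edgeR 4.0.16 (R 4.3.3; quasi-likelihood F test, TMM, filterByExpr by group, robust, two-sided) in 1 model over all libraries with a mean per group, and p-values were adjusted by Benjamini-Hochberg over 17148 genes. Each SE is the fold change divided by the root of F. The code was tested on simulated counts. The 9 genes, the lists, the markers and the split of the libraries at an mt-Nd6 count of 2% of mt-Nd5 were chosen with earlier results of these data known. Pathway genes were named where called, up to 4 per list and comparison, and for likeness the 3 highest r per gene among those whose mean log2 CPM reached 1 (prior count 2). 1 listed gene enters the counts and is otherwise not reported here. Correlations used 100000 permutations of pairings within groups. Alternatives were no filter, DESeq2 1.42.0 and its size factors, a block by the mouse number's final digit, the library set as a term or the first set alone, and leaving out each library. The F test p-values set differences between group means against the spread between these libraries. Permutation p-values set a correlation against permuted pairings within groups.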

Additional observations from a re-analysis of the deposited data

Results flagged for a closer look

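Of 80 groups of libraries checked for a library far from the rest of its group, 5 had one, and chance gives about 1 in 20 groups. Angptl4 was at 69.2 CPM in LPS+nAAT 4102, above 36.1 to 42.0 in the rest of that group, and Plin2 was at 149 CPM in LPS 1105, below 217 to 239. Cat was at 326 CPM in LPS 1102 (the others 380 to 398), Pparg at 15.98 CPM in LPS 1103 (the others 11.3 to 12.5), and Slc27a3 at 22.9 CPM in LPS+recAAT 6105 (the others 16.05 to 17.9).

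In 3 genes the log2 fold change against LPS differed among the AAT preparations by edgeR's F test over all genes. The widest gap was 0.97 for Acoxl (LPS+nAAT minus LPS+recAAT), 0.62 for Pparg (LPS+nAAT minus LPS+oxAAT) and 0.42 for Soat1 (LPS+nAAT minus LPS+recAAT). For Acoxl the value is a description, since the gene was chosen with such differences known. None of the 3 was called with the library set as a term, where nearly all calls over all genes among the preparations were lost.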

How the results depend on the processing

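Of the called values, 1 changed sign under the alternatives run: Acsl4 in LPS+recAAT was -0.18 with the library set as a term, where it was not called. With no filter, calls among all genes for LPS+nAAT were 50 and listed pathway genes among preparations 1. With a replicate block by the mouse number's final digit, which no label calls a pairing, calls among all genes were 1364 for LPS over air and 248 for LPS+nAAT; listed genes 8 (LPS over air), 3 (LPS+nAAT), 7 (LPS+recAAT) and 4 (among preparations); and the 9 genes 1 for LPS+nAAT and 2 for LPS+oxAAT. With the library set as a term, calls among all genes were 196 for LPS+nAAT, 6 for LPS+oxAAT, 0 for LPS+recAAT and 3 among preparations. Listed genes then had 0 in each of the last 3, as had the 9 genes, of which 4 were called for LPS over air. The first set alone gave 34 calls among all genes for LPS+nAAT and 13 for LPS+oxAAT, with 0 listed genes and 0 of the 9 for LPS+oxAAT; it holds no LPS+recAAT library and gave no value there. By DESeq2, calls among all genes were 429 for LPS+nAAT, 1255 for LPS+oxAAT and 499 among preparations; listed genes 7 (LPS over air), 5 (LPS+nAAT), 9 (LPS+recAAT) and 10 (among preparations); and the 9 genes 4 (LPS over air), 1 (LPS+nAAT) and 3 (LPS+oxAAT). DESeq2 size factors gave an r of 0.65 for Lpl and Cpt1a, past the threshold. The cause of these shifts was not tested. Leaving out 1 library at a time, calls among all genes ran from 391 (without air 2102) to 904 for LPS over air, 20 (without LPS 1104) to 144 for LPS+nAAT, 167 (without LPS+oxAAT 5103) to 1881 (without LPS+oxAAT 5102) for LPS+oxAAT, 865 (without LPS 1104) to 2316 (without LPS 1105) for LPS+recAAT, and 41 (without LPS+nAAT 4102) to 368 (without LPS+oxAAT 5102) among preparations. Listed genes ran from 2 to 5, 0 to 3, 0 to 6, 1 to 16 and 0 to 5 in that order, the 9 genes from 1 to 3, 0 to 1, 0 to 3 and 1 to 3 in the first 4, and r for Lpl and Cpt1a from 0.55 to 0.70. At 25 to 279 counts per library, counting error adds most to Mfsd2a.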

Other observations

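Further marker lists gave these summed levels in CPM. Type 1 cell markers ran from 6324 to 7478 in LPS+nAAT, 5015 to 6807 in LPS+oxAAT, 4999 to 6965 in LPS+recAAT, 5329 to 6998 in LPS and 6432 to 7756 in air. Lipofibroblast markers ran from 3523 to 4006 in LPS+nAAT, 3754 to 4268 in LPS+oxAAT, 3229.7 to 3669.8 in LPS+recAAT, 3349 to 4294 in LPS and 3807 to 4371 in air. Neutrophil markers ran from 243 to 707 in LPS+nAAT, 171 to 267 in LPS+oxAAT, 207 to 427 in LPS+recAAT, 274 to 383 in LPS and 199 to 255 in air. Liver markers were at 13.8 CPM or less in every library, skeletal muscle markers at 51.2 or less and brown adipocyte markers at 9.504 or less.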
